A study of Mus musculus with 14 samples.

Results

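The genes described here are those of hepatic triglyceride synthesis, from the first acyl transfer onto glycerol-3-phosphate to the last acyl transfer onto diacylglycerol, together with the protein that loads triglyceride into lipoproteins. The members were the 9 rows of the liver count table whose symbols were Gpam, Agpat2, Lpin1, Lpin2, Lpin3, Mogat1, Dgat1, Dgat2 and Mttp, out of 25212 genes listed. All 9 had enough reads to be tested, as did 14252 genes in all.

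Triglyceride is built stepwise in the liver. Gpam, the mitochondrial glycerol-3-phosphate acyltransferase, makes lysophosphatidic acid, Agpat2 adds the next acyl chain to give phosphatidic acid, and the lipins Lpin1, Lpin2 and Lpin3 remove the phosphate to give diacylglycerol. Mogat1 reaches diacylglycerol by acylating monoacylglycerol, and Dgat1 and Dgat2, enzymes unrelated to each other in sequence, add the final acyl chain. Mttp is not a synthesis enzyme. It is the microsomal transfer protein that moves triglyceride onto apolipoprotein B, the step that commits lipid to very-low-density lipoprotein (VLDL) export. Hepatic steatosis is the accumulation of the product of this pathway.

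RNA was sequenced from 14 whole livers of male C57BL/6 mice, 1 library per liver, all fed a high-fat diet (HFD) from 6 weeks of age for 12 weeks and thereafter. The 5 DIO livers came from diet-induced obese mice without surgery. The 4 GB-IL livers were taken 8 weeks after the gallbladder was joined to the ileum with the common bile duct ligated, so that bile bypasses most of the small bowel, and the 5 RYGB livers 8 weeks after Roux-en-Y gastric bypass. Operated and unoperated mice shared genotype and type of diet, but the controls had no sham operation. Surgery as such and the rerouting of bile or food therefore cannot be told apart. The paper also reports lower body weight, less hepatic steatosis, more faecal fat and altered food intake after both operations. These cannot be told apart from the operations here either. The comparisons ask how the transcripts of the pathway stood after bile diversion and after gastric bypass relative to the obese control, and relative to each other.

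Total counts ran from 18440676 to 21473005 in the DIO, from 19231679 to 26131278 in the GB-IL and from 18223135 to 28656631 in the RYGB libraries. The GB-IL group was not uniform. Scores on the first principal component of all tested genes (48.5% of the variance) were 134, 106 and 20.1 in GB-IL livers 1 to 3 but -35.3 in the fourth, a score inside the DIO range of -45.7 to -21.9. The summed level of 5 cholangiocyte markers was 297, 238 and 205 CPM (read counts scaled to a common library size) in GB-IL livers 1 to 3 and 60.0 in GB-IL liver 4, against 31.9 to 64.3 in DIO. The 6 hepatocyte markers summed to between 68318 and 97204 CPM in GB-IL livers 1 to 3 and to 114534 in GB-IL liver 4, against 114430 to 126133 in DIO, so the label liver held in every library. GB-IL liver 1 also carried 1530 CPM of 6 skeletal muscle markers, which summed to at most 2.86 CPM in any other liver. RYGB liver 5 stood apart from its group too, with a component score of 17.4 against -33.8 to -2.14 in the other RYGB livers, 114 CPM of 5 neutrophil markers against 2.62 to 6.31, and 451 CPM of 5 endothelial cell markers against 156 to 246. Whether the label of GB-IL liver 4 is right could not be settled here. The part of these differences in the results below was not tested, and the calls of the members are given with and without the livers that stood apart.

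On the mouse build GRCm38 the members lie apart from one another. Gpam spans chr19:55067268-55127238 on the minus strand, Agpat2 chr2:26593057-26604417 (minus), Lpin1 chr12:16535669-16610966 (minus), Lpin2 chr17:71182560-71249817 (plus) and Lpin3 chr2:160880670-160906002 (plus). Mogat1 spans chr1:78510991-78538173 (plus), Dgat1 chr15:76502015-76511953 (minus), Dgat2 chr7:99153658-99182719 (minus) and Mttp chr3:138089854-138144968 (minus). All are protein-coding. Exons of 3 members overlap those of a gene on the other strand that was also counted, and, since the strand setting of the counting was not stated, reads in these stretches cannot be assigned to one strand. This overlap was 200 bases, or 12.8% of the exon length, of Mogat1 with BC035947, which had at most 5 reads in any liver. It was 457 bases, or 7.36%, of Mttp with Trmt10a, at most 140 reads, and 64 bases, or 3.00%, of Agpat2 with Egfl7, at most 1496 reads.

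Promoter windows of 300 bases, from 250 before to 50 after an annotated start (RefSeq, GRCm38.p6), were at hand for 7 of the 9 members, namely Gpam, Agpat2, Lpin1, Lpin2, Lpin3, Mogat1 and Mttp. Those of Gpam, Mttp and Mogat1 are printed because their 3 lowest GB-IL values lay in the same 3 livers, all under every DIO value. The share of all genes with that pattern was not counted. Without GB-IL liver 4, 24.6% of all genes passed the threshold used below against DIO. The window of Lpin2 is printed because it had the most kinds of match. Capitals mark matches, on either strand, to the E-box CACGTG, the GC box GGGCGG or the CCAAT box.
Gpam, chr19:55127189-55127488, minus strand: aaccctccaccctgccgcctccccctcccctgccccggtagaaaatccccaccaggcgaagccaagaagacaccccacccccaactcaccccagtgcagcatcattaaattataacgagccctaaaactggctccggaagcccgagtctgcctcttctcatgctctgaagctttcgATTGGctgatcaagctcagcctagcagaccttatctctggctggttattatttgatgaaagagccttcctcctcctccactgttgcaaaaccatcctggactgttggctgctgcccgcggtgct
Mttp, chr3:138143369-138143668, minus strand: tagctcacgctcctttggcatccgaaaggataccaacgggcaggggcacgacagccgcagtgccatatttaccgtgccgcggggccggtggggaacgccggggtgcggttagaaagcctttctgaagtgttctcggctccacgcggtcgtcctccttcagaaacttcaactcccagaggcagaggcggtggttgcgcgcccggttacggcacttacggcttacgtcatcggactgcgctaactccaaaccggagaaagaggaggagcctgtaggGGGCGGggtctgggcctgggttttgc
Mogat1, chr1:78510810-78511109, plus strand: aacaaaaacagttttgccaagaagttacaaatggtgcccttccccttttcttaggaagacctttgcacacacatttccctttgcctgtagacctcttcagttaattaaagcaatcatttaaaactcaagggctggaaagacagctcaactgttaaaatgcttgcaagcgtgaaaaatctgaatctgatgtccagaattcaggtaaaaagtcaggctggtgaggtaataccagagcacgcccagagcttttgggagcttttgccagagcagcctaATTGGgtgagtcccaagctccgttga
Lpin2, chr17:71183282-71183581, plus strand: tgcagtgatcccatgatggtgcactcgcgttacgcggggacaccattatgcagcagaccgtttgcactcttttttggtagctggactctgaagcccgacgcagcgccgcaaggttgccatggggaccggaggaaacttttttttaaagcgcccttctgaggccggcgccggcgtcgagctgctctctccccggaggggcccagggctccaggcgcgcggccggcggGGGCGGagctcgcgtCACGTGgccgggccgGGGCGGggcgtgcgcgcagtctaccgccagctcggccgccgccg
The Gpam window held a CCAAT box read from the other strand 74 bases before the start, and a further Gpam start had a GC box. The Mttp window held a GC box 24 bases after the start, and the Mogat1 window a CCAAT box at the same distance. The Lpin2 window held an E-box, the letters read by basic helix-loop-helix factors, 9 bases before the start, and Lpin3 held an E-box 22 bases after a start. Of all 32851 promoter windows, 7.15% held the E-box, 37.4% the CCAAT box and 35.7% the GC box. The Lpin1 window held none of these letters, and no member window held the TATA box TATAAA, which 13.6% of all windows held. Nor did any hold the sterol response core TCACNCCAC (N for any base, 1.24% of all windows), the HNF4 core CAAAGTCCA (0.475%) or the DR1 element, AGGTCA repeated after 1 base (0.0396%). These matches are descriptions of the letters in the window and not of binding. The printed windows of Mttp and Lpin2 lie wholly inside the spans of their genes. Which start is used in liver was not tested, so letters missing from a window may stand at another start.

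No member passed the threshold in any of the 3 comparisons (the quasi-likelihood test of edgeR, adjusted over 14252 genes by the method of Benjamini and Hochberg at a false discovery rate of 0.05). In GB-IL against DIO this was 0 of 9 members, with 3.26% of all genes called. DESeq2 called 1 member, Dgat2, with 9.07% of genes called, and limma-voom with sample quality weights called 0, with 4.13% of genes called. In RYGB against DIO it was 0 of 9, with 0% of genes called. DESeq2 called 0 members there (0.681% of genes) and limma-voom called 3, Lpin1, Dgat2 and Mogat1, with 11.9% of genes called. Without RYGB liver 5, edgeR called 0 of 9 in all 3 comparisons. The share of genes called was then 3.41% in GB-IL against DIO, 0% in RYGB against DIO and 0% in GB-IL against RYGB. With all livers, GB-IL against RYGB gave 0 of 9 by edgeR, with 0% of genes called, and 0 by DESeq2 (5.93%) and by limma-voom (0.807%). In whole liver, fewer cells of a type and less RNA per cell cannot be told apart.

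At an unadjusted p under 0.05, Lpin3 was higher and Dgat2 and Mttp were lower in GB-IL than in DIO. That is 3 of 9 members, with 23.1% of all genes past the same mark. In RYGB against DIO, Lpin1 and Dgat2 were lower, 2 of 9 against 8.71% of genes. In GB-IL against RYGB, Lpin3 and Dgat1 were higher, 2 of 9 against 22.1%. By sign alone, 6 of 9 members had a log2 fold change below 0 in GB-IL against DIO, where 46.9% of all genes did, 8 of 9 in RYGB against DIO, where 48.5% did, and 4 of 9 in GB-IL against RYGB, where 47.5% did. The median log2 fold change of the members was -0.41 in GB-IL and -0.27 in RYGB against DIO, beside 0.04 and 0.01 over all genes. Both comparisons use the same 5 DIO livers.

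**Figure D1:**
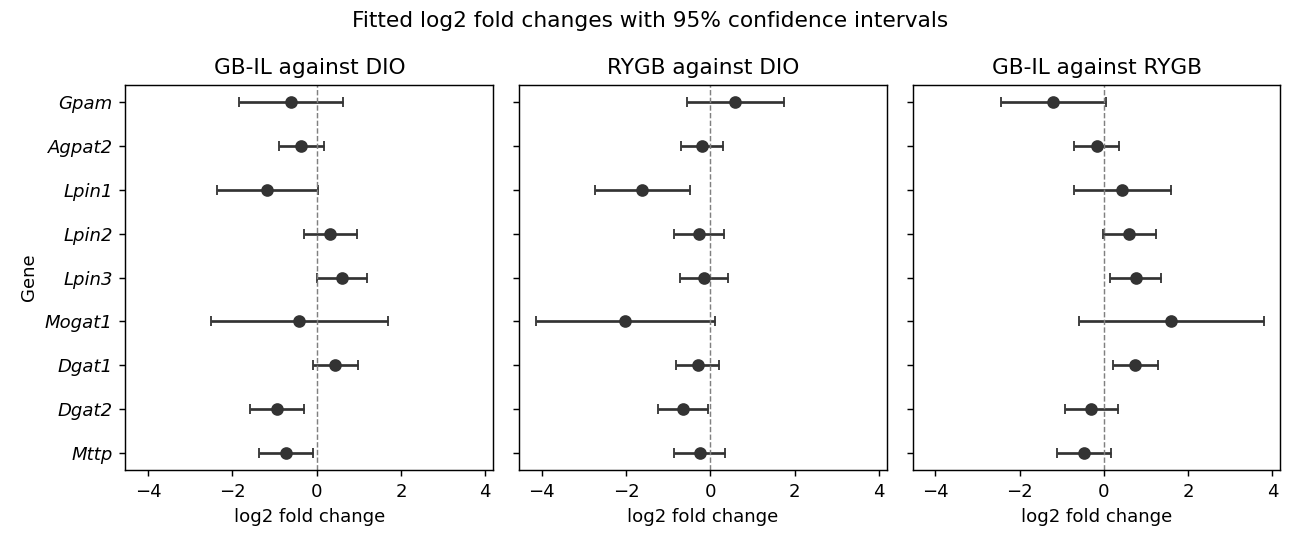
Fitted log2 fold changes (horizontal axis) of the 9 members (vertical axis) in the 3 comparisons, with 95% confidence intervals. Dgat2 and Mttp lay below 0 and Lpin3 above 0 in GB-IL against DIO with intervals that do not cross 0, Lpin1 and Dgat2 did so below 0 in RYGB against DIO, and the interval of Mogat1 was the widest in each panel.

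Gpam, which catalyses the first committed step, stood at 101, 142, 53.0, 56.1 and 73.4 CPM in DIO livers 1 to 5, scaled by the trimmed mean of M values (TMM). In GB-IL livers 1 to 4 it was 23.1, 13.1, 36.2 and 151 CPM. In RYGB livers 1 to 5 it was 58.7, 190, 117, 145 and 130 CPM. GB-IL livers 1 to 3 were thus under every DIO and every RYGB liver, while GB-IL liver 4 exceeded every DIO liver, and RYGB overlapped DIO with 2 livers above its range. The group means were 85.1 ± 37.2 (SD, n = 5) in DIO, 55.9 ± 64.3 (n = 4) in GB-IL and 128 ± 47.7 (n = 5) in RYGB. Fitted log2 fold changes were -0.60 (SE 0.576, edgeR adjusted p = 0.513) in GB-IL and 0.59 (SE 0.538, edgeR adjusted p = 0.788) in RYGB against DIO, and -1.19 (SE 0.585, edgeR adjusted p = 0.242) between the operations. Leaving out GB-IL liver 4 moved the first to -1.82 (edgeR adjusted p = 0.0105, 24.6% of genes called) and the last to -2.41 (edgeR adjusted p = 0.00583, 21.5% of genes called). Leaving out GB-IL livers 1 and 2 instead gave 0.13 against DIO (edgeR adjusted p = 0.992, 0% of genes called).

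Agpat2, the acyltransferase that makes phosphatidic acid and whose loss causes lipodystrophy, was among the steadier members. It was 215, 128, 269, 203 and 196 CPM in DIO, 133, 109, 234 and 154 in GB-IL and 173, 223, 191, 155 and 142 in RYGB. The ranges of the 3 groups overlapped throughout. The fitted log2 difference was -0.36 (95% interval -0.90 to 0.17, edgeR adjusted p = 0.376) in GB-IL and -0.19 (-0.70 to 0.31, edgeR adjusted p = 0.852) in RYGB against DIO. The difference between the operations was -0.17 (-0.70 to 0.37, edgeR adjusted p = 0.691).

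Of the lipins, which are phosphatidate phosphatases and, in the case of lipin 1, also a transcriptional coactivator, Lpin1 had the widest spread among controls. It was 333, 165, 136, 975 and 788 CPM in DIO livers 1 to 5. It was 203, 143, 175 and 331 CPM in GB-IL and 143, 54.5, 183, 173 and 233 CPM in RYGB. DIO livers 4 and 5 were far above every operated liver, DIO liver 1 was level with the highest of them, and DIO livers 2 and 3 were within the RYGB range. Against DIO the log2 fold change of Lpin1 was -1.61 in RYGB (SE 0.525, edgeR adjusted p = 0.446) and -1.17 in GB-IL (SE 0.559, edgeR adjusted p = 0.223). limma-voom gave -2.05 in RYGB (limma-voom adjusted p = 0.0184). With any 1 liver left out, the RYGB value ran from -1.85 to -1.18 and never passed in edgeR.

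Lpin2, the lipin whose loss in people causes Majeed syndrome, was 378, 318, 250, 425 and 411 CPM in DIO. It was 557, 480, 226 and 524 CPM in GB-IL, where 3 livers were above and 1 was below the DIO range. It was 219, 182, 346, 311 and 416 CPM in RYGB. The log2 fold change of 0.33 in GB-IL (edgeR adjusted p = 0.489) became -0.24 in limma-voom (limma-voom adjusted p = 0.784), so its direction was not settled. It was -0.27 in RYGB against DIO (edgeR adjusted p = 0.814) and 0.60 in GB-IL against RYGB (edgeR adjusted p = 0.243).

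Lpin3, the remaining phosphatase of the family, was low everywhere, at 3.82, 4.43, 4.94, 6.45 and 6.25 CPM in DIO and 2.90, 5.23, 4.47, 5.42 and 5.33 CPM in RYGB. In GB-IL it was 13.2, 6.21, 6.28 and 5.87 CPM. GB-IL liver 1, the liver with skeletal muscle transcripts, was far above the rest, and the other 3 fell within the DIO range but above every RYGB liver. Lpin3 was the only member whose groups did not overlap in GB-IL against RYGB, in which 1.27% of all genes were above without overlap. On the log2 scale it was 0.61 higher in GB-IL than in DIO (SE 0.281, edgeR adjusted p = 0.211) and 0.75 higher than in RYGB (SE 0.280, edgeR adjusted p = 0.157). Without GB-IL livers 1 and 4 these were 0.25 and 0.40 (edgeR adjusted p = 0.543 and 0.315).

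**Figure D2:**
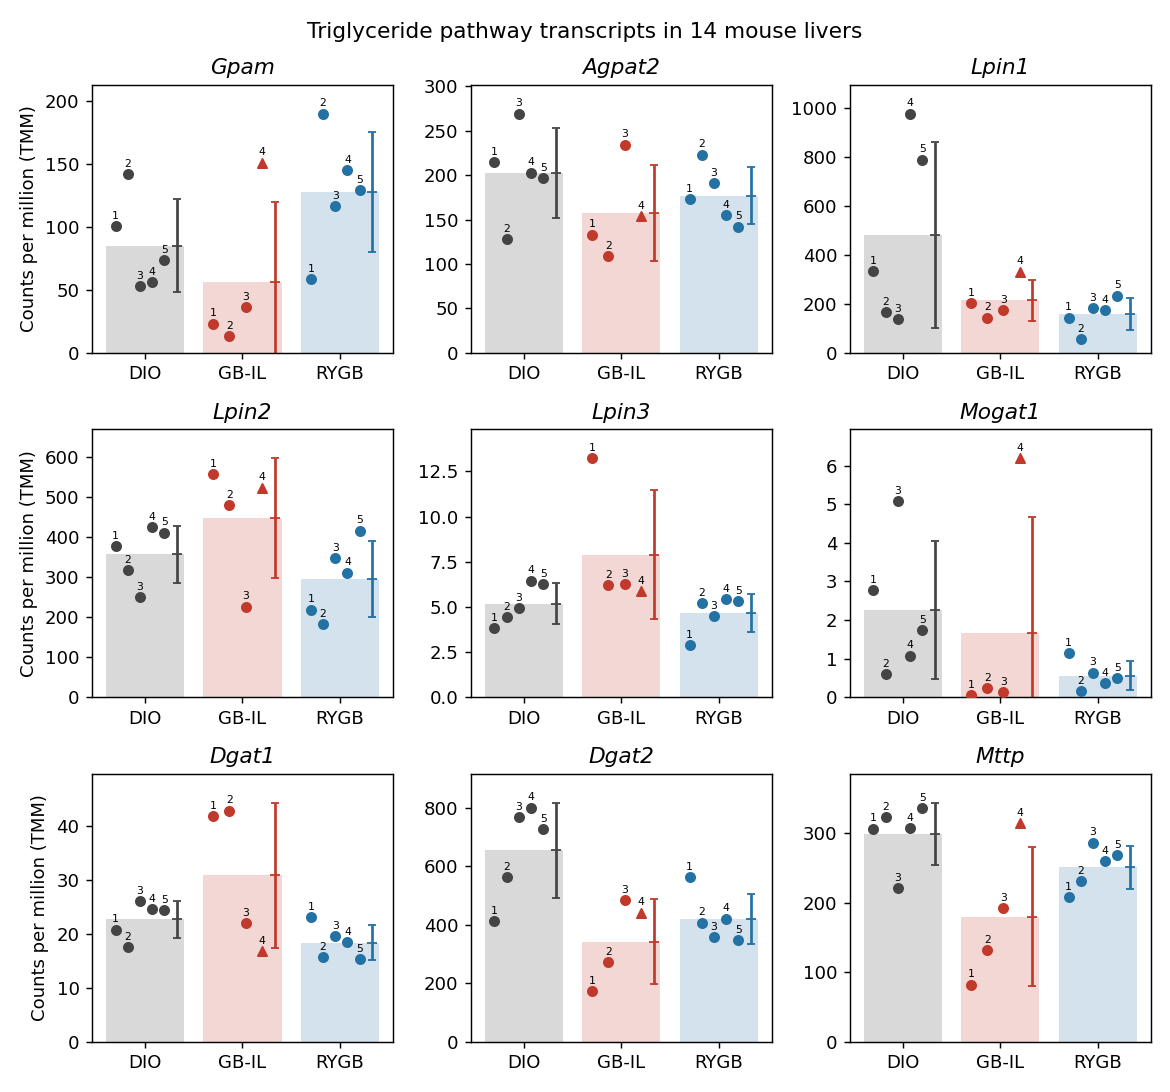
CPM (vertical axis, TMM-scaled, starting at 0) of the 9 members in each liver, by group. Points are livers with their replicate number, the triangle is GB-IL liver 4, bars are group means and error bars SD, which are clipped at 0 for Gpam and Mogat1 in GB-IL. GB-IL livers 1 to 3 lie under all DIO livers for Gpam, Mogat1 and Mttp, and GB-IL liver 4 does not. The share of all genes with this pattern was not counted.

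Mogat1, the monoacylglycerol acyltransferase that rises in steatotic liver in other settings, had few reads. There were 53, 12, 100, 19 and 36 reads in DIO and 21, 3, 18, 9 and 14 in RYGB. In GB-IL there were 1, 4, 3 and 168 reads, or 0.0525, 0.226, 0.127 and 6.20 CPM. GB-IL livers 1 to 3 were under every DIO liver and GB-IL liver 4 was the highest of all 14. The group comparison therefore gave little, with a log2 fold change of -0.41 (SE 0.986, edgeR adjusted p = 0.811). Without GB-IL liver 4 it was -4.03 (edgeR adjusted p = 0.00584), a fitted value that rests on 8 reads, and with livers 3 and 4 alone it was 0.49 (edgeR adjusted p = 0.981). The pooled rate of those 8 reads was 0.0588 times that of the 220 DIO reads (95% exact interval 0.0251 to 0.118, counting error only). This interval treats reads and not livers as the units. It leaves out the spread between livers, 12 to 100 reads in DIO, and GB-IL liver 4 with its 168 reads. It is therefore no measure of the difference between the groups. In RYGB 3 of 5 livers were under every DIO liver, and the log2 fold change was -2.02 (SE 0.994, edgeR adjusted p = 0.587, limma-voom adjusted p = 0.0352).

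Dgat1, one of the enzymes that close the pathway, was 20.8, 17.6, 26.1, 24.6 and 24.4 CPM in DIO and 23.1, 15.6, 19.6, 18.5 and 15.3 CPM in RYGB. In GB-IL it was 42.0, 42.9, 22.1 and 16.8 CPM. GB-IL livers 1 and 2 were above every DIO and RYGB liver, and GB-IL liver 4 was below every DIO liver. The log2 fold change was 0.45 against DIO (SE 0.254, edgeR adjusted p = 0.292) and 0.75 against RYGB (SE 0.254, edgeR adjusted p = 0.138). Without GB-IL liver 4 these were 0.64 (edgeR adjusted p = 0.0478) and 0.94 (edgeR adjusted p = 0.0130). With livers 1 and 2 of the group dropped in place of liver 4 they were -0.25 (edgeR adjusted p = 0.888) and 0.05 (edgeR adjusted p = 0.969).

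Dgat2, the diacylglycerol acyltransferase tied to newly made fatty acids, was the member with the smallest adjusted p in GB-IL against DIO. It was 412, 564, 767, 800 and 727 CPM in DIO, with a mean of 654 ± 163 (SD, n = 5). It was 172, 271, 483 and 441 CPM in GB-IL (342 ± 146, n = 4) and 562, 407, 357, 420 and 348 CPM in RYGB (419 ± 85.9, n = 5). In GB-IL 2 of 4 livers and in RYGB 3 of 5 livers were under every DIO liver, and none was above the DIO median of 727. Dgat2 differed from DIO by -0.94 on the log2 scale in GB-IL (SE 0.303, edgeR adjusted p = 0.0962, DESeq2 adjusted p = 0.0250) and -0.64 in RYGB (SE 0.281, edgeR adjusted p = 0.547, limma-voom adjusted p = 0.0185). The operations differed from each other by -0.29 (95% interval -0.93 to 0.34, edgeR adjusted p = 0.552). Without GB-IL liver 4 the GB-IL value was -1.09 (edgeR adjusted p = 0.0285), and with livers 3 and 4 alone it was -0.52 (edgeR adjusted p = 0.695).

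Mttp, the triglyceride transfer protein of VLDL assembly, was 306, 322, 221, 307 and 336 CPM in DIO, where liver 3 stood apart. It was 82.0, 131, 192 and 314 CPM in GB-IL and 208, 231, 286, 259 and 268 CPM in RYGB. As for Gpam and Mogat1, GB-IL livers 1 to 3 were under every DIO liver, a pattern whose share over all genes was not counted. For Mttp, GB-IL liver 4 was within the DIO range, and RYGB overlapped DIO. Mttp differed from DIO by -0.73 on the log2 scale in GB-IL (SE 0.302, edgeR adjusted p = 0.171) and -0.25 in RYGB (95% interval -0.85 to 0.35, edgeR adjusted p = 0.833). Without GB-IL liver 4, Mttp was -1.15 against DIO (edgeR adjusted p = 0.00748) and -0.90 against RYGB (edgeR adjusted p = 0.0259). With GB-IL livers 1 and 2 left out in its place, Mttp was -0.25 against DIO (edgeR adjusted p = 0.921) and -0.0045 against RYGB (edgeR adjusted p = 0.999).

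With GB-IL liver 4 left out, 5 of 9 members passed in GB-IL against DIO, of which Gpam, Dgat2, Mogat1 and Mttp were lower and Dgat1 higher, and 24.6% of all genes passed. In GB-IL against RYGB 4 passed, of which Gpam and Mttp were lower and Lpin3 and Dgat1 higher, with 21.5% of genes called. With livers 1 and 4 both left out, Gpam, Mogat1 and Mttp still passed against DIO (12.1% of genes called) and only Gpam against RYGB (9.89%). With livers 1 and 2 left out no member passed in either comparison (edgeR, 0% of genes called), with 0 members at an unadjusted p under 0.05 against DIO and 1 against RYGB. For 6 of the 9 members the call thus depended on which GB-IL livers were included, and no label gives a reason to drop any of them.

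**Figure D3:**
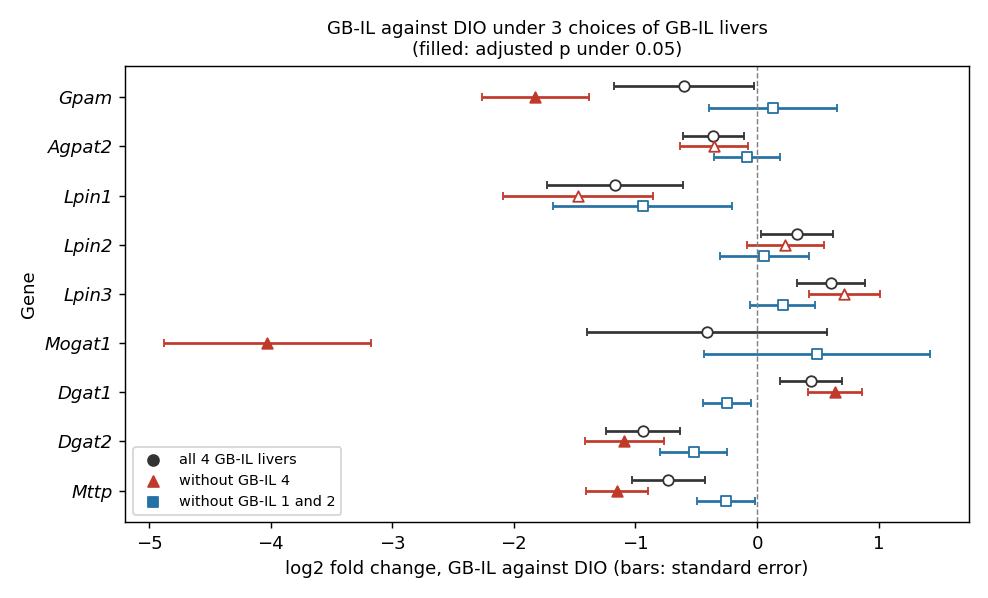
Fitted log2 fold changes of the 9 members in GB-IL against DIO (horizontal axis, bars are standard errors) with all 4 GB-IL livers, with livers 1 to 3 and with livers 3 and 4. Filled symbols passed the threshold of 0.05 on the edgeR adjusted p. They are Gpam, Mogat1, Dgat1, Dgat2 and Mttp, all with livers 1 to 3 only, where 24.6% of all genes passed.

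The livers also differed in how their values leaned with the base composition of genes. The median deviation from the mean of all livers of genes with at least 54.2% GC, minus that of genes with at most 44.8% GC, was 0.60 and 0.66 on the log2 scale in GB-IL livers 1 and 2 and ran from -0.49 to 0.21 in the other 12. Over the 14 livers this lean, which is measured in the same libraries as the members, went with Gpam at r = -0.867, with Mttp at r = -0.804 and with Dgat1 at r = 0.837. A like lean between long and short genes went with Gpam at r = 0.856, Mttp at 0.544 and Dgat1 at -0.797. The first principal component, of which the members are part, went with Gpam at r = -0.815, Mttp at -0.933 and Dgat1 at 0.796. After correction of each liver for GC content and gene length, a choice made after seeing the data, no member passed in any comparison by edgeR (3.7%, 0% and 0% of genes called). With that correction and without GB-IL liver 4, Gpam, Dgat2, Mogat1 and Mttp passed against DIO (26.9% of genes called) and Dgat1 did not, at 0.36 (edgeR adjusted p = 0.149). Against RYGB it was Gpam, Dgat1 and Mttp that passed (21.1% of genes called).

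Gpam and Dgat1 mirrored each other from liver to liver. Across the 14 livers the correlation of their log2 CPM was r = -0.936 (Spearman rho = -0.903), and it was -0.909 once group means were removed. It was -0.849 without GB-IL livers 1 and 2, the lowest in Gpam, and -0.759 after the GC and length correction. Before that correction this was the largest correlation in size among the 36 pairs of members, and 1.14% of all tested genes had r below -0.9 with Gpam. After it the pair of Dgat2 and Mttp was larger, at r = 0.876. That pair had r = 0.706 before the correction and 0.063 without GB-IL livers 1 and 2. Gpam and Mttp ran together at r = 0.760, or 0.443 without GB-IL livers 1 and 2. Lpin1 and Lpin2 ran together at r = 0.597, or 0.784 without those livers. For Dgat1 and Mttp, r = -0.769 became -0.147, so that relation rested on those 2 livers. All points share library and depth with one another, and the values are descriptive.

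**Figure D4:**
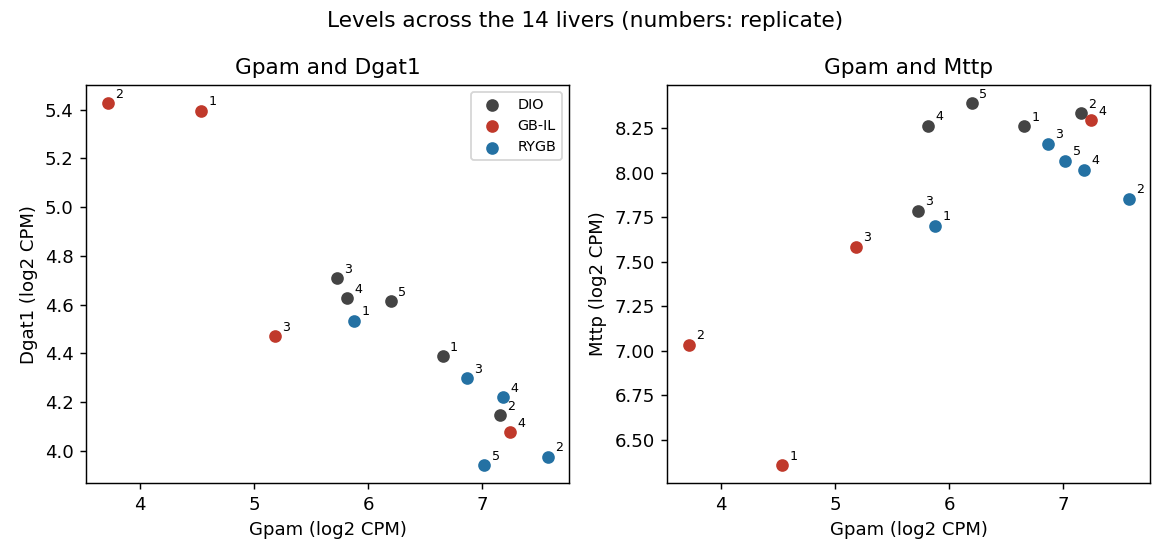
Log2 CPM of Gpam (horizontal axes) against Dgat1 (left) and Mttp (right) in the 14 livers, coloured by group and numbered by replicate. Dgat1 is lower where Gpam is higher across the 14 livers (r = -0.936), and GB-IL livers 1 and 2 hold the extreme corner of both panels.

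The balance within pairs of enzymes was taken as the ratio of their CPM in the same liver, which is not corrected for length and is compared only between livers. The Dgat2 to Dgat1 ratio had a median of 29.8 in DIO (range 19.8 to 32.5), 22.8 in RYGB (18.2 to 26.04) and 14.1 in GB-IL (4.09 to 26.3). The GB-IL range enclosed that of RYGB and overlapped that of DIO. The Lpin1 to Lpin2 ratio had a median of 0.883 in DIO (0.519 to 2.29), 0.498 in GB-IL (0.298 to 0.774) and 0.555 in RYGB (0.3002 to 0.654), again with overlap.

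Per kilobase of exon, Dgat2 was the most abundant member in every group, at 212 ± 52.9 CPM per kilobase in DIO, 111 ± 47.3 in GB-IL and 136 ± 27.9 in RYGB (SD, n = 5, 4 and 5). Agpat2 came next in every group, at 95.04 ± 23.7 in DIO, and its range was separate from that of Dgat2 in DIO and RYGB but not in GB-IL. In DIO the order went on with Lpin1, Mttp, Lpin2, Gpam and Dgat1, where the neighbours Agpat2 and Lpin1, Lpin1 and Mttp, Lpin2 and Gpam, and Gpam and Dgat1 overlapped. Mogat1 and Lpin3 were last in every group, at 1.45 ± 1.15 and 1.40 ± 0.309 in DIO. Gpam ranked above Lpin1 in RYGB and below Dgat1 in GB-IL, in each case with overlapping ranges.

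**Figure D5:**
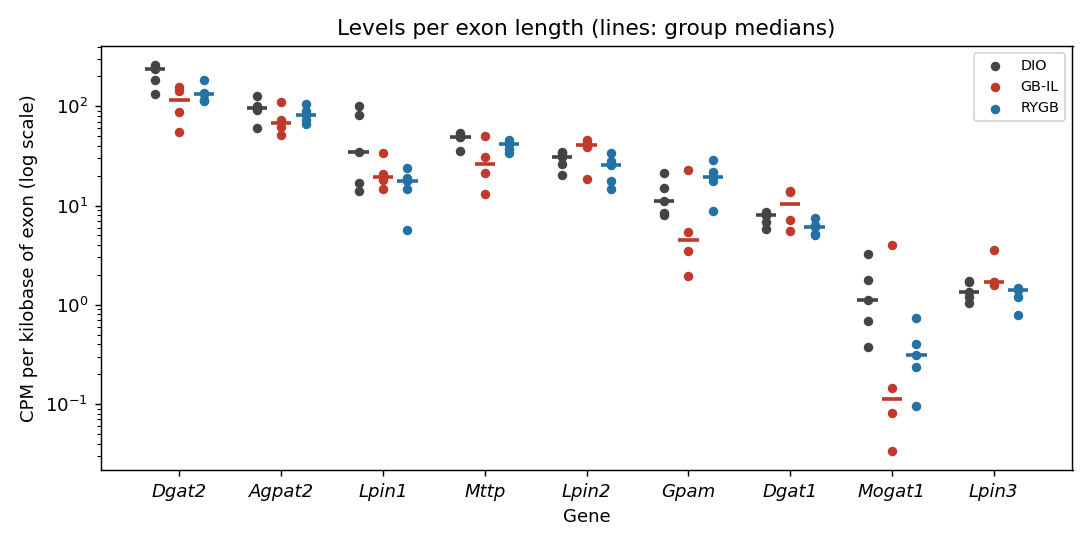
CPM per kilobase of exon (vertical axis, log scale) of the 9 members in each liver, by group, in the order of the DIO means. Lines are group medians; Dgat2 and Agpat2 lead in every group, and Mogat1 in GB-IL holds both the lowest value of the plot and, in liver 4, a value above its whole DIO range.

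Of 10 other tested enzymes of glycerolipid synthesis, not all of the same steps as the members, 0 passed in any comparison by edgeR. In GB-IL against DIO 4 had an unadjusted p under 0.05, 2 in each direction, where 23.1% of all genes did. DESeq2 called 2 of the 10 enzymes (9.07% of all genes) and limma-voom 1 (4.13%) in that comparison. In RYGB against DIO DESeq2 called 0 (0.681%) and limma-voom 3 (11.9%), and in GB-IL against RYGB DESeq2 called 1 (5.93%) and limma-voom 0 (0.807%). The 2 with the smallest p in GB-IL against DIO were Gpd1l, at -0.79 (edgeR adjusted p = 0.0781), and Gpd1, at -1.23 (edgeR adjusted p = 0.117). These supply glycerol-3-phosphate to Gpam. Agpat6, another glycerol-3-phosphate acyltransferase of the endoplasmic reticulum, was at -0.93 in RYGB against DIO (edgeR adjusted p = 0.387). Gpd1l was the other of the 2 smallest there, at -0.55 (edgeR adjusted p = 0.528).

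Of 7 genes of VLDL assembly, 0 passed in any comparison by edgeR or DESeq2, limma-voom called 1 in RYGB against DIO (11.9% of all genes), and 2 had an unadjusted p under 0.05 in GB-IL against DIO (23.1% of all genes). These were Sar1b, the GTPase that buds lipoprotein carriers, at -0.72 (edgeR adjusted p = 0.140), and Cideb, which lipidates VLDL, at -0.77 (edgeR adjusted p = 0.196). In RYGB against DIO Sar1b was at -0.55 (edgeR adjusted p = 0.571), with all 5 RYGB livers under every DIO liver (1.66% of all genes did so), and Cideb was at -0.38 (edgeR adjusted p = 0.766). Of 9 genes of triglyceride hydrolysis, 0 passed by edgeR in any comparison, and 4 had an unadjusted p under 0.05 in GB-IL against DIO, 1 higher and 3 lower, where 23.1% of all genes did. DESeq2 called 1 of them (9.07% of all genes) and limma-voom 2 (4.13%) in that comparison. For RYGB against DIO DESeq2 called 0 (0.681%) and limma-voom 2 (11.9%), and in GB-IL against RYGB DESeq2 called 1 (5.93%) and limma-voom 0 (0.807%). Against DIO in GB-IL, Mgll, the monoacylglycerol lipase, was at -1.41 (edgeR adjusted p = 0.119) and Pnpla2, the adipose triglyceride lipase, at 1.5 (edgeR adjusted p = 0.124). Lipe was at -0.60 and Mgll at -0.64 in RYGB against DIO (edgeR adjusted p = 0.547 and 0.718). All 5 RYGB livers were under every DIO liver for Mgll and for Aadac, an esterase named after its values were seen (1.66% of all genes did so).

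Of 7 transcription regulators of the pathway, 0 passed by edgeR or limma-voom in any comparison, DESeq2 called 1 in GB-IL against DIO (9.07% of all genes), and 2 had an unadjusted p under 0.05 in that comparison (23.1% of all genes). Mlxipl, which encodes the carbohydrate-responsive factor ChREBP, was at -1.37 (edgeR adjusted p = 0.0962), with all 4 GB-IL livers under every DIO liver (1.51% of all genes did so). Ppargc1a, a coactivator of oxidative genes, was at 1.08 (edgeR adjusted p = 0.135). In RYGB against DIO the 2 smallest p belonged to Foxo1, at -0.42 (edgeR adjusted p = 0.672), and Ppargc1a, at 0.58 (edgeR adjusted p = 0.697). Without GB-IL liver 4, edgeR called 4 of the 10 enzymes, 4 of the 7 VLDL genes, 6 of the 9 hydrolysis genes and 3 of the 7 regulators in GB-IL against DIO, where 24.6% of all genes were called.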

How the data were processed

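Whole-liver RNA was sequenced by the authors in 14 mice (5 DIO, 4 GB-IL, 5 RYGB), and groups and replicate numbers were taken from the sample titles. The deposited table holds raw counts of reads per gene, made by the authors with TopHat2 on mm10 and HTSeq, per the labels and the study's methods. The labels list the human build hg19 beside mm10 without giving its role. Tool versions, annotation and strand setting: not given in the sources used here. Which of the 2 kits in the labels made which library is not stated, so kit and group cannot be told apart.

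Counts were filtered with filterByExpr and scaled by TMM, and 1 quasi-likelihood model over all 14 livers (edgeR 4.0.16, R 4.3.3) gave the 3 comparisons, with Benjamini-Hochberg adjustment at 0.05. Standard errors are the log2 fold change over the root of F. The fits were tested on simulated data. log2 CPM used a prior count of 2. Alternatives were DESeq2 1.42.0, limma-voom with sample quality weights (limma 3.58.1), other scalings and filters, 2 groups only, robust estimation, a replicate block, and omission of each liver. Omission of 2 livers and the lowess correction for GC content and length (span 0.3, 99.0% of tested genes matched) were added after seeing the data.

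Exon lengths and positions came from GENCODE M21 on GRCm38, the assembly that mm10 names, which held 24701 of 25212 listed identifiers. Promoters came from RefSeq.

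The members and gene lists were chosen with earlier results of these data known. Genes named were every member, and from each pathway list the 2 with the smallest p in each operation against DIO, and for each member the 2 genes of highest r over the livers, of which 1 is not reported here. Markers of the remaining cell types were summed as lists. Replicates are separate livers. No libraries were alike within sampling noise. Depth is given as the total count per library, and counting intervals cover counting error only.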

Additional observations from a re-analysis of the deposited data

Results flagged for a closer look

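Dixon's test was applied to 27 sets of livers (9 members in 3 groups). In 4 sets the highest or lowest liver was farther from its neighbour than the 95% critical value allows. For a single set of normally distributed values, chance gives such a flag about 1 time in 20. Sets of different members share the same livers and are not independent, so this rate is no yardstick for the 4 flags together. How often other genes are flagged in these livers was not counted. The flags therefore do not show that the members stand out from other genes. Gpam was 151.3 CPM in GB-IL liver 4, where the other GB-IL livers were at 13.1 to 36.2. Mogat1 was 6.197 CPM in the same liver, where the others were at 0.0525 to 0.226. Lpin3 was 13.24 CPM in GB-IL liver 1, where the others were at 5.87 to 6.28. Mttp was 220.6 CPM in DIO liver 3, where the other DIO livers were at 306 to 336. The part of sample handling or cell composition in these values was not tested.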

How the results depend on the processing

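The count of members called was 0 in each comparison under both other scalings, both other filters, robust estimation, only the 2 groups compared and the GC and length correction alone. Under these settings the share of genes called ran from 0% to 3.75% in GB-IL against DIO. It ran from 0% to 0.242% in RYGB against DIO and from 0% to 0.207% in GB-IL against RYGB. In GB-IL against DIO the count of members was 1 by DESeq2 (9.07% of all genes called). The GC and length correction with GB-IL liver 4 dropped gave 4 (26.9%). Dropping GB-IL livers 1 and 4 gave 3 (12.1%). Single omissions gave 0 to 5, the 5 only when GB-IL liver 4 was absent (24.6%). In RYGB against DIO the count of members was 3 by limma-voom (11.9% of all genes called). In GB-IL against RYGB it was 3 with that correction and GB-IL liver 4 dropped (21.1%). It was 1 there on dropping GB-IL livers 1 and 4 (9.89%). Single omissions gave 0 to 4, the 4 only when GB-IL liver 4 was absent (21.5%). Deviations of same-numbered livers from their group means correlated at -0.38 to 0.38, in both directions. The labels give no batch, and whether the numbers stand for one cannot be settled from these values. With a replicate block the count was 0 in each comparison, and the genes called in GB-IL against DIO went from 465 to 1. Those 465 became 1292 by DESeq2, 3572 without GB-IL liver 4, and 0 on omitting GB-IL liver 1, GB-IL liver 2 or any 1 DIO liver, or with only the 2 groups compared. The sign of 14 member values turned. In GB-IL against DIO, Lpin2 was -0.24 by limma-voom and -0.022 without GB-IL livers 1 and 4, Mogat1 ran from -4.03 to 0.12 over single omissions, the latter without DIO liver 3, and without GB-IL livers 1 and 2 Gpam was 0.13, Dgat1 -0.25 and Mogat1 0.49. In GB-IL against RYGB, Agpat2 was 0.025 and Mogat1 -0.36 by limma-voom, Mogat1 ran from -2.01 (GB-IL liver 4 left out) to 2.00 over single omissions and was -2.10 with the GC and length correction and without it, and -1.66 without GB-IL livers 1 and 4, Lpin1 was -0.0023 without GB-IL livers 1 and 4, and without GB-IL livers 1 and 2 Agpat2 was 0.11 and Dgat2 0.12. The cause was not tested. Mogat1 had no value under a mean of at least 50 counts.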

Other observations

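For each member the genes whose log2 CPM ran most like it over the 14 livers were taken from all 14252 tested genes. They share library and depth with the member, and r is descriptive. Gpam ran with Epm2aip1 at r = 0.969 and Nek4 at 0.961, and Mttp with Gopc at 0.967. Dgat1 ran with Rxrb at 0.965, which encodes a retinoid X receptor, and Eif1 at 0.961, a translation initiation factor. Dgat2 ran with Acy1 at 0.969, an aminoacylase, and Smarcd2 at 0.952, and Mogat1 with Gm21885 at 0.938 and Laptm4b at 0.931. Agpat2 ran with Gm5093 at 0.924, a processed pseudogene, and Mif4gd at 0.854. The top values of the 3 lipins were the lowest among the members. Lpin1 ran with Cdip1 at 0.836 and Anks1 at 0.828, Lpin2 with Klf11 at 0.877 and Paip1 at 0.865, and Lpin3 with Gm10600 at 0.893 and Odf2 at 0.864. Of the genes named here, Odf2 alone lies on the chromosome of its member.

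Summed markers of other cell types also differed between GB-IL livers. The 5 neutrophil markers were at 84.6, 34.1 and 325 CPM in GB-IL livers 1 to 3 and 1.65 in GB-IL liver 4, against 1.72 to 4.10 in DIO, with Ly6g at 0 in DIO. The 8 enterocyte markers, 7 of them in the table, were at 8.77, 5.20 and 27.4 CPM in GB-IL livers 1 to 3 and 209 in GB-IL liver 4, against 70.6 to 187 in DIO. In RYGB they summed to 55.1 to 101 CPM, although Fabp6, Sis, Cdx2 and Alpi had 0 reads there. Fabp6 also had 0 reads in GB-IL. This sum thus rests on part of its list and does not show that enterocytes were present. The 5 macrophage markers in the table were at 309 to 1105 CPM in GB-IL, 231 to 364 in DIO and 252 to 629 in RYGB, and the 5 endothelial cell markers at 141 to 210, 168 to 206 and 156 to 451. The 5 stellate cell markers were at 307 CPM in GB-IL liver 1 and 54.4 to 106 in the other GB-IL livers, and the 6 adipocyte markers at 16.5 CPM in GB-IL liver 4 and at most 7.32 in any other liver. Their part in the values of the members was not tested.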
